A study of Mus musculus with 28 samples.

Results

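Dorsal hippocampus libraries from fear-conditioned mice given RU486 (n = 5) were compared with libraries from Basal mice (n = 4), to describe which parts of the transcriptional response to conditioning were measured while a glucocorticoid receptor antagonist was on board. The 9 libraries were taken by their labels from the 28 in the series. They are RU486 6, 12, 19, 25 and 32 and Basal 1, 9, 14 and 27, where the number is the one in the sample label. All mice were male C57Bl6, and no genotype other than the strain is given. The RU486 mice were trained by auditory fear conditioning, where the animal learns that a tone predicts a foot shock, and were given RU486 (mifepristone). The Basal mice had neither conditioning nor treatment. Conditioning, the handling that goes with dosing and the drug itself therefore differ together between these groups, and they cannot be told apart from this contrast. The Vehicle libraries (n = 4), from conditioned mice given vehicle, give the same contrast without a ligand. The remaining conditioned mice received ligands of the glucocorticoid receptor that the labels call Cort (n = 5), C108 (n = 5) and C118 (n = 5). No source used here gives the ages, the doses or the times, and RU486 without conditioning is not analysed here. The labels do not say that each library came from a separate mouse, so the p-values below measure the spread between these libraries, which may be in part technical.

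The glucocorticoid receptor is a transcription factor that corticosterone, the main glucocorticoid of mice, activates in the cytoplasm; it then enters the nucleus and binds response elements near its target genes. Stress such as a foot shock releases corticosterone, and in the hippocampus the hormone is known to act during the consolidation of fear memory. RU486 binds the same receptor and the progesterone receptor and is used as an antagonist of both, although it leaves some receptor functions in place or acts as a weak agonist on some genes.

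Gene counts totalled 18527682 to 20055095 per library in Basal, 16244993 to 19597537 in RU486 and 18622214 to 19142347 in Vehicle. Levels are given in CPM, the counts scaled to a common library total after TMM normalization, as mean ± SD. Defining markers of the 3 hippocampal fields were present in every library. The summed level of the 14 tested dentate gyrus markers ran from 1037 to 1201 CPM in Basal and from 960 to 1126 CPM in RU486, and that of the 12 tested CA1 markers from 1185 to 1350 CPM and from 1068 to 1212 CPM. A few libraries stood apart. RU486 6 and RU486 25 held choroid plexus transcripts: Ttr, the transthyretin gene that this epithelium expresses strongly, stood at 3944 and 2454 CPM there, against 48.5 to 70.7 CPM in the other RU486 libraries and 7.78 to 233 CPM in Basal. Basal 9 stood closer to the conditioned libraries than Basal 1, 14 and 27 for many of the genes below. Vehicle 16 had the highest thalamus score of the Basal, RU486 and Vehicle libraries, a score being the mean centred log2 CPM of the markers, and Vehicle 16 and 29 had the highest neocortex scores. In Vehicle the summed CA1 markers ran from 625 CPM, in Vehicle 16, to 1280 CPM. The dentate gyrus sum ran from 801 CPM, in Vehicle 29, to 1042 CPM. In bulk tissue, fewer cells of a type and less RNA per cell cannot be told apart.

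**Figure D1:**
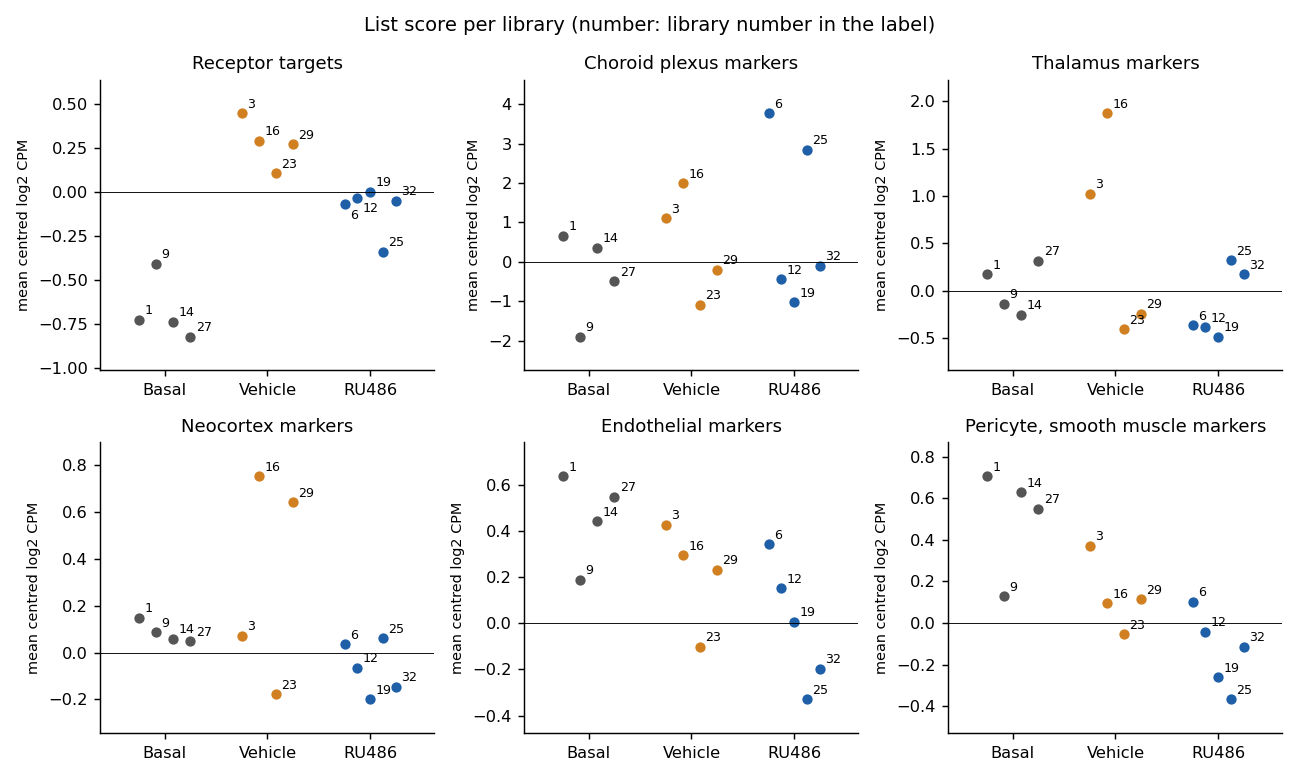
Scores of 6 gene lists in the Basal, Vehicle and RU486 libraries; each point is a library with its label number, and the y axis is the mean over list members of log2 CPM centred on all 28 libraries. For receptor targets the RU486 libraries (-0.34 to 0.00) lie between Basal (-0.82 to -0.41) and Vehicle (0.10 to 0.45), and RU486 6 and 25 stand out for choroid plexus markers.

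At an adjusted p under 0.05 by edgeR's quasi-likelihood test, the RU486 libraries differed from Basal in 912 of 16735 tested genes (5.45%). Of these, 436 were higher in RU486 (2.61% of tested genes) and 476 were lower (2.84%). The changes were mostly modest: the median size was 0.37 on the log2 scale among the genes that rose and 0.55 among those that fell, and 89 genes (32 higher, 57 lower) changed at least 2-fold. Receptor target genes, repressors of the circadian clock and genes of lipid storage were among the rises. The falls included adhesion proteins, potassium channels, growth factor receptors and genes of the vessel wall. For comparison, Vehicle against Basal gave 688 calls, 274 higher and 414 lower (4.11%, 1.64% and 2.47%). Call counts depend on group size, here 5 RU486 and 4 Vehicle libraries, so they do not rank the contrasts by size of response. The contrasts share their Basal libraries, so their values are set side by side below without being counted as agreement, and the difference between them was tested as RU486 against Vehicle.

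In that direct test no gene passed the threshold (0 calls), with 1366 genes at an unadjusted p under 0.05. On the same libraries DESeq2 gave 44 calls and limma-voom 0. The count moved with single Vehicle libraries: it was 207 without Vehicle 23 and 22 without Vehicle 3. Genes at an unadjusted edgeR p under 0.05 moved as well. They numbered 2151 without Vehicle 23, 531 with thalamus and neocortex scores as covariates and 362 without Vehicle 16 and 29. The Basal contrast also moved with single libraries: it gave 300 calls without Basal 1, 275 without Basal 14, 498 without Basal 27 and 426 without RU486 19, against 1178 without Basal 9 and 798 without RU486 6 and 25 together. A core of 212 genes (98 higher, 114 lower) was called in the reported analysis and in all 19 alternatives, and these are written below as held calls. Where a named gene is not among them, the libraries whose removal ended its call, or the number of alternatives that kept it, are given. Of the genes named below, leaving out RU486 6 and 25 together ended the calls of Klf9 (adjusted p = 0.0541), Kcnj4 (0.0575), Cldn5 (0.0589), Dusp5 (0.0591), Gpd1 (0.0671), Myh11 (0.0818), Egfr (0.0833) and Pon3 (0.569). Leaving out Basal 9 ended those of Pon3 (0.0577), Kcnd3 (0.0743) and Egfr (0.08).

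**Figure D2:**
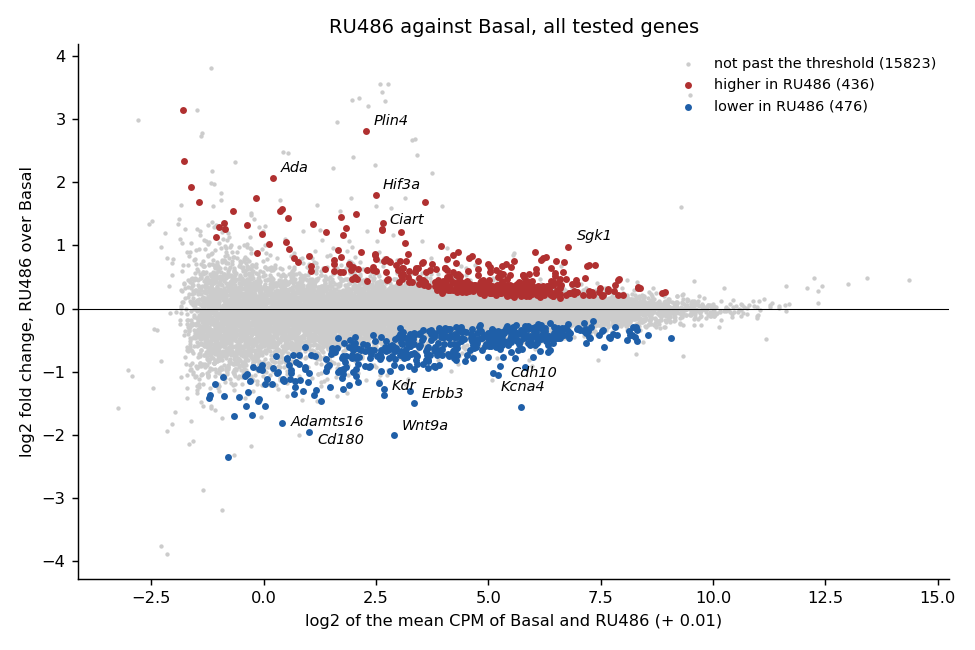
Log2 fold change of RU486 over Basal (y axis) against the log2 of the mean CPM of both groups (x axis) for all tested genes; red points are the 436 genes that were higher, blue points the 476 that were lower, and grey points did not pass. The named genes include Plin4 at 2.82 and Wnt9a at -2.

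Glucocorticoid receptor targets were the list with the largest count of rises. Of 36 tested targets, 15 rose and 1 fell in RU486 against Basal, against 2.61% and 2.84% of all tested genes, and their median log2 fold change was 0.61, with a median of 0.00 over all genes (0.0035). In Vehicle against Basal 23 targets rose and 1 fell, with a median of 0.89. The RU486 mean lay above the Basal mean for 34 of the 36 and below the Vehicle mean for 31. Every RU486 library lay above every Basal library for 17 targets (background 4.73%), and every RU486 library lay below every Vehicle library for 10 (background 0.98%). In RU486 against Vehicle, 18 targets were lower at an unadjusted p under 0.05, against 4.9% of all genes, and 0 passed after adjustment; the median difference was -0.32. Target levels in RU486 were thus measured between those of Basal and Vehicle for most members. The list was written with earlier results of these data known, so its counts are a description.

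**Figure D3:**
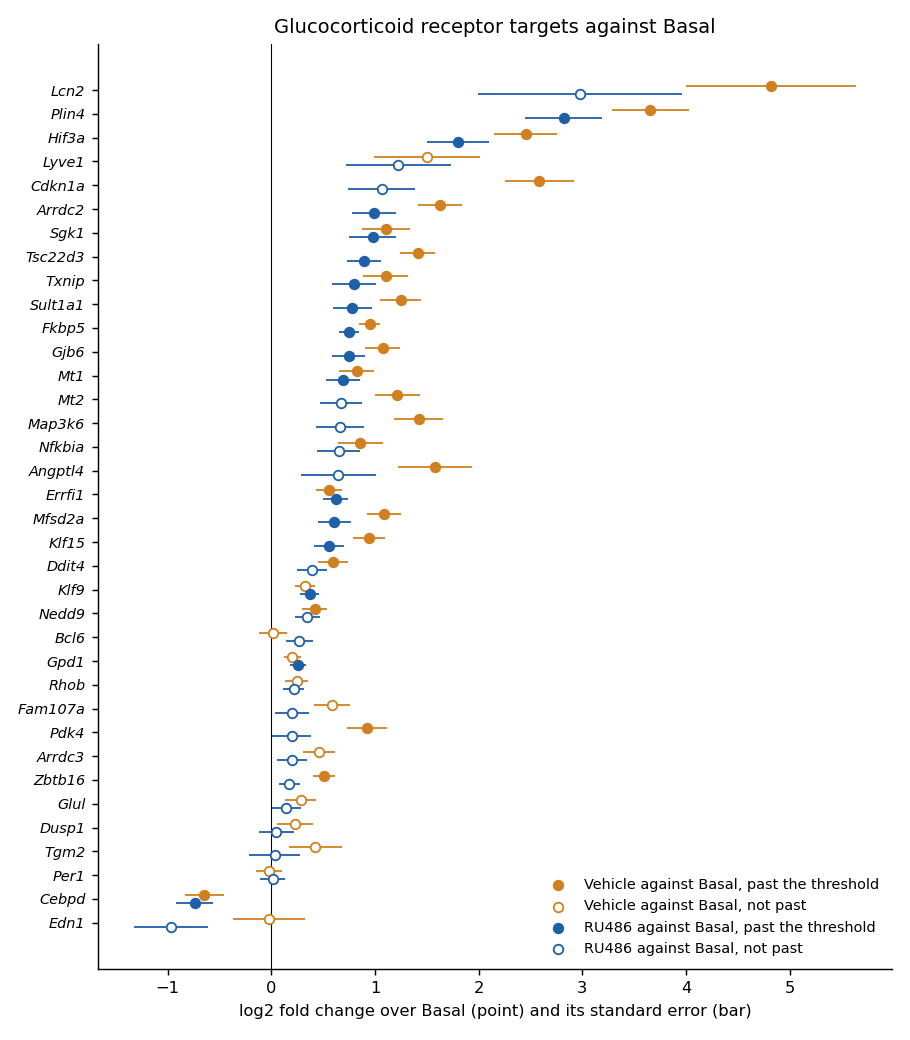
Log2 fold change over Basal (point) with its standard error (bar) for the 36 receptor targets, in RU486 (blue) and Vehicle (orange); filled points passed the threshold. Both contrasts use the same Basal libraries. Fkbp5 stood at 0.75 in RU486 and 0.95 in Vehicle, Plin4 at 2.82 and 3.65, and Cdkn1a at 1.06 and 2.58.

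Plin4, which encodes a coat protein of lipid droplets, showed the largest rise among the called genes with at least 1 CPM over the 9 libraries. It lies on chromosome 17 from 56100591 to 56109803 (GRCm38). Its level was 0.921, 2.14, 1.27 and 0.531 CPM in Basal 1, 9, 14 and 27 and 7.74, 10.1, 7.87, 5.41 and 11.3 CPM in RU486 6, 12, 19, 25 and 32. The ranges do not overlap, and the means of 1.21 ± 0.685 CPM (SD, n = 4) and 8.49 ± 2.29 CPM (SD, n = 5) differed by 2.82 ± 0.37 (SE) on the log2 scale (edgeR adjusted p = 8.81e-05). The Vehicle libraries reached 9.48 to 19.1 CPM. RU486 was 0.84 ± 0.28 below them on the log2 scale, which did not pass (adjusted p = 0.37), and the highest RU486 libraries overlapped the lowest Vehicle library.

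Fkbp5 encodes a co-chaperone that lowers the receptor's affinity for hormone and is itself induced by the receptor. It lies on chromosome 17 from 28399094 to 28517527. Basal 1, 9, 14 and 27 measured 61, 80.6, 59.9 and 68.4 CPM, and RU486 6, 12, 19, 25 and 32 measured 101, 119, 122, 113 and 113 CPM. All RU486 libraries were above all Basal libraries, by 0.75 ± 0.10 on the log2 scale (edgeR adjusted p = 5.32e-05). Vehicle libraries ranged from 115 to 144 CPM, and the difference of -0.20 ± 0.09 between RU486 and Vehicle did not pass (adjusted p = 0.599).

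Tsc22d3, also called Gilz, encodes a leucine zipper protein that carries anti-inflammatory effects of glucocorticoids. Its level was 39.2, 63.2, 42.1 and 38.1 CPM in Basal 1, 9, 14 and 27 and 78.2, 87.4, 101, 65.4 and 92.1 CPM in RU486 6, 12, 19, 25 and 32, a rise of 0.89 ± 0.16 (edgeR adjusted p = 0.0015). The groups did not overlap, but the highest Basal value, in Basal 9, was close to the lowest RU486 value, in RU486 25. Vehicle stood higher, at 105 to 149 CPM, above every RU486 library, and the difference of -0.52 ± 0.16 did not pass (adjusted p = 0.297).

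Hif3a encodes a member of the hypoxia-inducible factor family. Its level rose from 1.43, 5.26, 2.03 and 1.35 CPM in Basal 1, 9, 14 and 27 to 9.46, 11.2, 8.03, 6.07 and 8.75 CPM in RU486 6, 12, 19, 25 and 32, by 1.80 ± 0.30 on the log2 scale (edgeR adjusted p = 0.000724). Here too Basal 9 was the highest Basal library and RU486 25 the lowest RU486 library, without overlap. Errfi1, an inhibitor of the epidermal growth factor receptor, rose from 52.9 ± 11.7 to 81.2 ± 4.31 CPM, by 0.62 ± 0.12 (adjusted p = 0.00226), and Vehicle was at 77.6 ± 11.3 CPM. Arrdc2, an alpha-arrestin, rose by 0.99 ± 0.21 (adjusted p = 0.00616) to 20.6 ± 4 CPM, with RU486 25 (13.8 CPM) below Basal 9 (15.9 CPM). These 6 genes, Plin4 to Arrdc2, were held calls.

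Sgk1, a kinase that regulates ion channels and transporters, is a textbook receptor target. Its level was 55.5, 58.3 and 49.6 CPM in Basal 1, 14 and 27 but 130 CPM in Basal 9, against 161, 132, 136, 114 and 178 CPM in RU486 6, 12, 19, 25 and 32. Basal 9 thus lay inside the RU486 range and above RU486 25. The difference of 0.98 ± 0.23 passed with all libraries (edgeR adjusted p = 0.0121) and did not without Basal 1, 14 or 27 (0.0645, 0.0673 and 0.054) or when the fit held only these groups (0.104). Sgk1 was also the single gene whose promoter held a full match to the palindromic receptor response element. Among 15136 RefSeq promoters (GRCm38.p6, 250 bases before to 50 after a start site) of 11798 tested genes, the letters AGAACA, any 3 bases and TGTTCT, searched on both strands, occurred in 1, which is 0.00661% of promoters. It is 1 of 6 promoters listed for the gene. The 250 bases before that start site, on the plus strand at chr10:21993640-21993889, are shown because they carry that match, in capitals, which begins 189 bases before the start site.
Sgk1: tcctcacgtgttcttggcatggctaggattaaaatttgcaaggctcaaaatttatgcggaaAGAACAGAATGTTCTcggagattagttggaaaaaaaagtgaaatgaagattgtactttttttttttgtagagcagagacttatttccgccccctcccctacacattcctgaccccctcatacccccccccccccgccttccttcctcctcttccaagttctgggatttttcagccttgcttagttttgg
The half-site AGAACA, which overlaps the full element, was found in 13.7% of the promoters of genes that rose, 13.7% of those of genes that fell and 12.7% of all. A match in these letters is a description of sequence and not a measured binding site.

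The other 8 targets that rose were Gjb6, a gap junction protein of astrocytes, the metallothionein Mt1, the sulfotransferase Sult1a1, the Krüppel-like factors Klf9 and Klf15, the lipid transporter Mfsd2a of the blood-brain barrier, Txnip, a thioredoxin-binding protein, and Gpd1, the cytosolic glycerol phosphate dehydrogenase. Their log2 fold changes ran from 0.26 for Gpd1 (edgeR adjusted p = 0.0493) to 0.80 for Txnip (adjusted p = 0.0259). Gjb6 rose from 35.4 ± 5.46 to 59.3 ± 9.15 CPM (0.75 ± 0.16, adjusted p = 0.00691), and Mt1 from 126 ± 17.1 to 204 ± 33.6 CPM (0.69 ± 0.16, adjusted p = 0.0126). The 1 target that fell was Cebpd, a transcription factor of the C/EBP family, from 10.2 ± 3.08 to 6.11 ± 0.567 CPM (-0.74 ± 0.18, adjusted p = 0.0141). None of these 9 was a held call; where leaving out 1 library ended a call, the adjusted p lay between 0.0523 and 0.207. Without Basal 14 all 9 lost the call; without Basal 1, Mt1, Klf9, Klf15, Mfsd2a, Txnip and Gpd1 did; without Basal 27, Klf9, Klf15, Mfsd2a, Txnip, Gpd1 and Sult1a1. Removing RU486 12 ended the call of Txnip, RU486 19 those of Klf15, Mfsd2a and Gpd1, RU486 25 that of Gpd1 and RU486 32 those of Klf15 and Gpd1. The count of targets that rose was 8 without Basal 1, 6 without Basal 14 and 8 without Basal 27.

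Cdkn1a, which encodes the cell cycle inhibitor p21, showed the widest gap between RU486 and Vehicle among these targets apart from the low-level Lcn2. Basal 1, 9, 14 and 27 measured 6.71, 11.7, 5.99 and 5.36 CPM, RU486 6, 12, 19, 25 and 32 measured 16, 17.1, 21, 8.75 and 14.5 CPM, and Vehicle 3, 16, 23 and 29 measured 51.8, 45.9, 40.2 and 39.6 CPM. Every Vehicle library was above every RU486 library, while RU486 25 fell below Basal 9. The C108 and C118 means were also below Vehicle, at 24.9 ± 12.1 and 20.6 ± 2 CPM. RU486 against Basal did not pass (1.06 ± 0.32, edgeR adjusted p = 0.0545), Vehicle against Basal did (2.58, adjusted p = 4.39e-05), and RU486 against Vehicle missed the threshold (-1.52 ± 0.29, adjusted p = 0.0592). That last test passed without Vehicle 23 (0.0131) and with DESeq2 (0.0026), and the Basal contrast passed without Basal 9 (0.0194) and without RU486 25 (0.0346). Mt2, the second metallothionein, missed as narrowly in RU486 (76.2 ± 14.3 to 122 ± 25.9 CPM, adjusted p = 0.0528); it passed without Basal 9 (0.0319), RU486 6 (0.0489) or RU486 25 (0.0458). Pdk4, a kinase that restrains pyruvate oxidation, stood at 10.5 ± 1.16 CPM in RU486 and 9.11 ± 1.27 CPM in Basal (adjusted p = 0.58), against 17.3 ± 4.43 CPM in Vehicle. Zbtb16, a zinc finger repressor, stood at 58.6 ± 7.68 and 51.9 ± 6.63 CPM in RU486 and Basal (adjusted p = 0.331), against 73.8 ± 7.80 CPM in Vehicle. Lcn2, lipocalin 2, was listed at 0 in 3 of 4 Basal libraries and at 0.0965 CPM in Basal 27, at 0.123 to 0.417 CPM in RU486 and at 0.446 to 1.28 CPM in Vehicle, and its fold over Basal is not given.

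Among the receptors and their partners 1 of 21 tested genes passed, a share near the 5.45% of all genes. Nr3c1, the glucocorticoid receptor itself, fell from 129, 96.7, 123 and 122 CPM in Basal 1, 9, 14 and 27 to 98.6, 92.4, 72.5, 91.9 and 87.9 CPM in RU486 6, 12, 19, 25 and 32 (-0.41 ± 0.09, edgeR adjusted p = 0.00671, a held call). RU486 6 slightly exceeded Basal 9, and Vehicle was at 82.7 ± 3.78 CPM. Nr3c2, the mineralocorticoid receptor, was at 369 ± 11.2 CPM in Basal and 293 ± 22.7 CPM in RU486, with every RU486 library lower, yet it did not pass (-0.33 ± 0.13, adjusted p = 0.133); it passed when only these groups were fitted (0.012) and with thalamus and neocortex scores as covariates (0.0224). Pgr, the progesterone receptor and the other receptor that RU486 binds, stood at 16.7 ± 3.24 and 13.1 ± 1.74 CPM (adjusted p = 0.137).

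Some genes of the circadian clock also changed. The clock is a loop in which the activators Clock and Arntl (Bmal1) drive their own repressors through E-box elements, and glucocorticoids are known to reset it in many tissues. Of 19 tested core genes 4 rose and 1 fell, against 2.61% and 2.84% of all genes, and the list's median was 0.01. In Vehicle against Basal 2 of them rose and 2 fell (1.64% and 2.47% of all genes), with a median of -0.02. Ciart, a repressor of the loop on chromosome 3 from 95878503 to 95882251, measured 3.43, 3.29, 3.30 and 4.63 CPM in Basal 1, 9, 14 and 27 and 8.66, 9.91, 6.59, 8.09 and 10.7 CPM in RU486 6, 12, 19, 25 and 32. The groups were well apart, by 1.26 ± 0.18 on the log2 scale (edgeR adjusted p = 0.000133). Nr1d1 and Nr1d2 encode the nuclear receptors REV-ERB alpha and beta, which repress Arntl. Nr1d1 rose from 53.6 ± 3.28 to 79.3 ± 10 CPM (0.56 ± 0.12, adjusted p = 0.00496) and Nr1d2 from 73.3 ± 7 to 105 ± 10 CPM (0.52 ± 0.09, adjusted p = 0.000747). Arntl fell from 48.2, 42.7, 48.2 and 50.8 CPM to 28.2, 34.3, 37.5, 32.9 and 31 CPM in the same libraries (-0.53 ± 0.11, adjusted p = 0.00383). All RU486 libraries were above Basal for Nr1d1 and Nr1d2 and below it for Arntl, and Ciart, Nr1d1, Nr1d2 and Arntl were held calls. Per1, a clock gene that is also a receptor target, stood at 54.5 ± 4.10 and 54.9 ± 9.48 CPM (adjusted p = 0.97).

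Dbp, a transcription factor driven by the clock, had the smallest p of all clock genes in RU486 against Vehicle. Basal 1, 9, 14 and 27 measured 23.7, 18, 25.9 and 29.7 CPM, RU486 6, 12, 19, 25 and 32 measured 41.5, 36.7, 31.3, 39.8 and 49.8 CPM, and Vehicle 3, 16, 23 and 29 measured 19.3, 21.6, 24.8 and 21.7 CPM. Every RU486 library was above every Basal and every Vehicle library. The rise over Basal was 0.71 ± 0.15 (edgeR adjusted p = 0.00612, a held call), while Vehicle against Basal gave -0.16 (adjusted p = 0.675). RU486 against Vehicle gave 0.87 ± 0.15 and missed the threshold (adjusted p = 0.0534); it passed with DESeq2 (0.000441) and without Vehicle 3 (0.04), Vehicle 23 (0.00448) or RU486 19 (0.024). For Ciart the same difference was 0.62 ± 0.17 (adjusted p = 0.243) and for Nr1d1 0.46 ± 0.12 (adjusted p = 0.202). The E-box CACGTG, its own reverse complement, occurred in 12.8% of promoters of the genes that rose, 6.97% of those of genes that fell and 9.4% of all promoters of tested genes. That order was not particular to the E-box: the cyclic AMP response element TGACGTCA occurred in 3.87%, 1.43% and 2.85%. The D-box TTATGTAA was rare, at 0.228%, 0.41% and 0.601%. The Ciart promoter held 3 copies of the E-box, beginning 116, 58 and 44 bases before the start site. Its 250 bases on the minus strand, at chr3:95882229-95882478, are shown with the copies in capitals.
Ciart: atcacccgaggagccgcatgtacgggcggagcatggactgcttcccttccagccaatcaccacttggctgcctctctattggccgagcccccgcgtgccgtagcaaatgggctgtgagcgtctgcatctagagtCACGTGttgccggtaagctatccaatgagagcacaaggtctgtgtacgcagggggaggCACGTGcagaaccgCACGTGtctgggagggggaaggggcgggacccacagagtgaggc

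**Figure D4:**
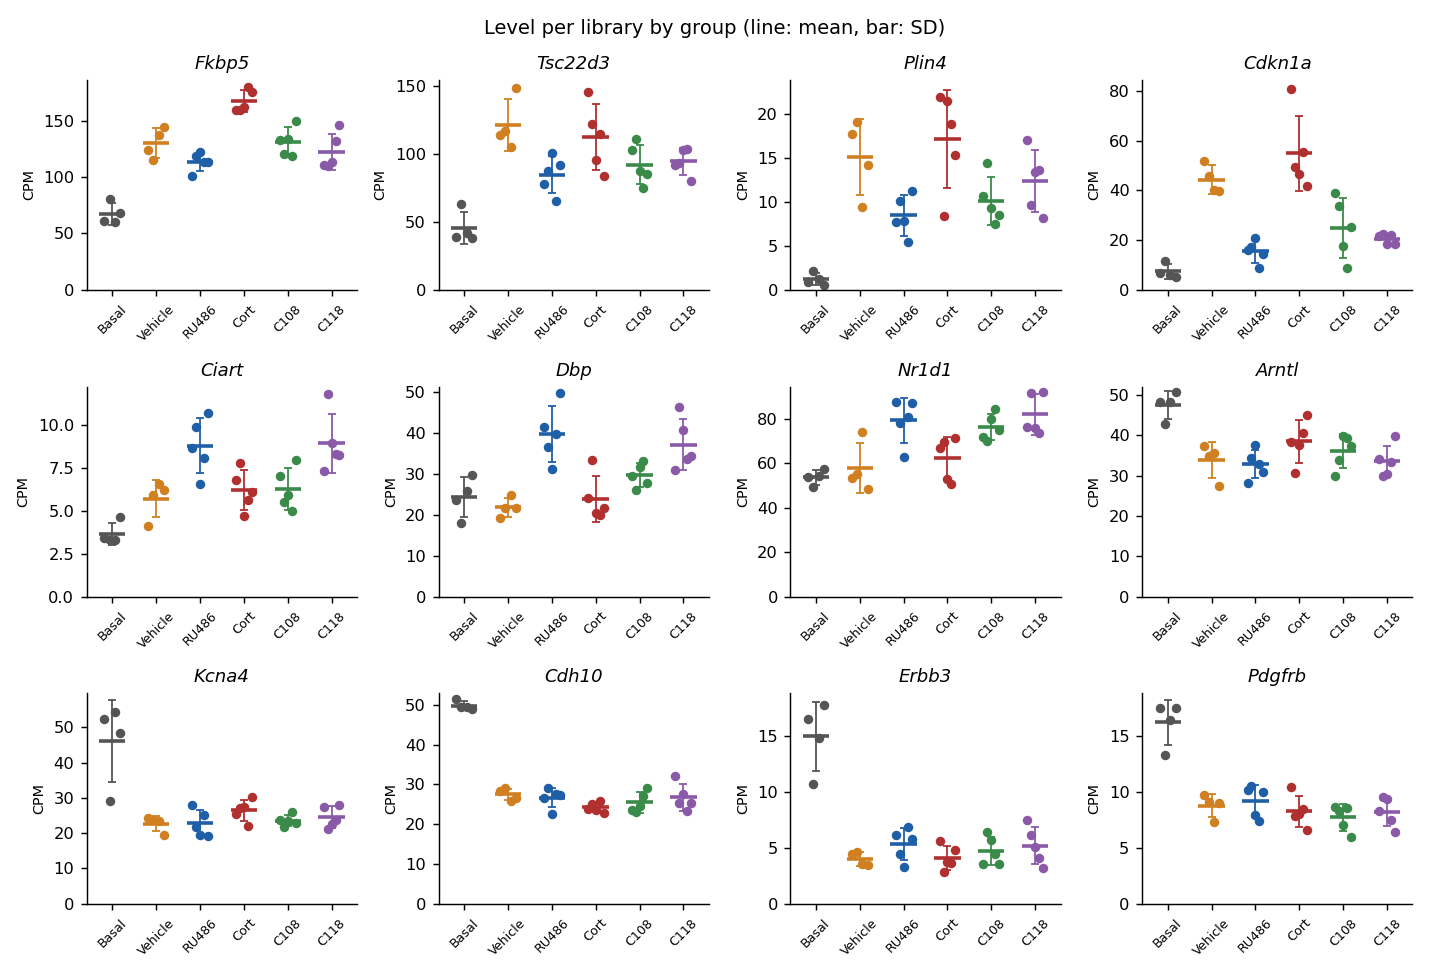
CPM of 12 genes in each of the 28 libraries by group (points), with the group mean (line) and SD (bar); each panel has its own linear y axis from 0. Fkbp5, Tsc22d3, Plin4 and Cdkn1a show RU486 between Basal and Vehicle, Dbp shows RU486 above both, and Kcna4, Cdh10, Erbb3 and Pdgfrb show all conditioned groups below Basal.

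Among genes of lipid storage and metabolism a few changed. Of 19 tested lipid droplet genes 3 rose, against 2.61% of all tested genes, and besides Plin4 the held call was Dgat2, the enzyme of the last step of triglyceride synthesis. It ran from 101 to 148 CPM in Basal, where Basal 9 was the highest, and from 173 to 223 CPM in RU486, where RU486 19 was the highest. The groups were apart, and the rise was 0.70 ± 0.14 (edgeR adjusted p = 0.00503). Pnpla2, the lipase that starts triglyceride breakdown, was at 14 ± 2.13 and 19.4 ± 2.46 CPM and missed the threshold (adjusted p = 0.0551); it passed without Basal 9 (0.0328) or RU486 25 (0.0344). Ada, adenosine deaminase, was the 1 of 11 purine genes to pass (2.61% of all genes rose), rising from 0.154 to 0.877 CPM over the Basal libraries to 0.983 to 2.82 CPM in RU486 (2.07 ± 0.38, adjusted p = 0.00147, held). Eif4ebp1, a repressor of translation that the mTOR kinase inactivates, rose from 1.26 ± 0.142 to 2.11 ± 0.357 CPM (0.73 ± 0.18, adjusted p = 0.0136), a call lost only when no low-count filter was used (0.0539) among the alternatives run.

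Other large rises, of genes with at least 1 CPM over the 9 libraries, were Fam83d, a spindle-associated protein (2.18 ± 1.81 to 6.12 ± 0.851 CPM, 1.5 ± 0.27, edgeR adjusted p = 0.00129), Arg2, the mitochondrial arginase (3.57 ± 1.20 to 9.11 ± 1.55 CPM, 1.36 ± 0.24, adjusted p = 0.00127), and Mlph, a linker of vesicles to myosin (1.22 ± 0.121 to 3.08 ± 0.485 CPM, 1.34 ± 0.19, adjusted p = 0.000133). All were held calls. For Fam83d, Basal 9 (4.88 CPM) stood near the lowest RU486 library (5.01 CPM) and far from the other Basal libraries (1.01 to 1.5 CPM).

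Few of the immediate early genes, which neuronal activity switches on within minutes, passed the threshold. Of 30 tested, 3 rose and 0 fell (2.61% and 2.84% of all genes), with a median of 0.21. In Vehicle against Basal 2 rose and 2 fell (1.64% and 2.47% of all genes), with a median of -0.16. Fos was at 5.12, 9.64, 3.66 and 4.73 CPM in Basal 1, 9, 14 and 27 and at 10.4, 3.70, 14.7, 11 and 9.54 CPM in RU486 6, 12, 19, 25 and 32. RU486 12 was the lowest RU486 library and lay near the lowest Basal library, so the groups overlapped (0.78 ± 0.41, edgeR adjusted p = 0.273). Arc (92 ± 8.56 and 107 ± 30.8 CPM, adjusted p = 0.769) and Npas4 (4.01 ± 1.22 and 4.94 ± 1.91 CPM, adjusted p = 0.709) did not pass either, and RU486 12 was again the lowest RU486 library for both. The held call in this list was Tiparp, an ADP-ribosyltransferase, at 21.4 ± 5.28 CPM in Basal and 33 ± 2.39 CPM in RU486 (0.63 ± 0.13, adjusted p = 0.00496). Dusp5, a phosphatase of ERK, rose from 17.9 ± 3.59 to 32 ± 4.89 CPM (0.84 ± 0.20, adjusted p = 0.0159), a call lost without Basal 14 (0.0784) or Basal 27 (0.0587). Bdnf, the neurotrophin most studied in memory, stood at 67.8 ± 5.81 CPM in Basal and 51.7 ± 7.71 CPM in RU486, with every RU486 library below every Basal library, and missed the threshold (-0.39 ± 0.13, adjusted p = 0.0673); it passed with DESeq2 (0.0437) and when only these groups were fitted (0.0407).

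Within the lists of potassium channels and of glutamate, GABA and serotonin receptors, the calls were falls. Of 30 tested potassium channel genes 4 fell and 0 rose, against 2.84% and 2.61% of all tested genes. Kcna4, a subunit of A-type channels that delay firing, lies on chromosome 2 from 107290639 to 107298502. It measured 52.4, 29, 54.4 and 48.4 CPM in Basal 1, 9, 14 and 27 and 28, 21.7, 19.5, 25.2 and 19.3 CPM in RU486 6, 12, 19, 25 and 32. Basal 9 was only just above the highest RU486 library, and the fall was -1.02 ± 0.14 (edgeR adjusted p = 7.31e-05, held). Vehicle was at 22.7 ± 2.24 CPM, with a difference from RU486 of 0.00 ± 0.14. Kcnj9, a subunit of G protein-gated inward rectifiers, fell from 86.7 ± 19.2 to 54.6 ± 4.82 CPM (-0.67 ± 0.14, adjusted p = 0.00677, held). Kcnj4 and Kcnd3 fell by 0.38 each (adjusted p = 0.0331 and 0.0375). Those 2 calls ended without most single libraries: Kcnj4 without Basal 1, 14 or 27 or RU486 12, 25 or 32 (0.0551 to 0.139), and Kcnd3 without any of the 4 Basal libraries or RU486 12, 19, 25 or 32 (0.0558 to 0.114).

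Htr1b, an inhibitory serotonin receptor of axon terminals, was the 1 of 11 serotonin receptor genes to pass (2.84% of all genes fell). It fell from 16.5, 9.21, 15.6 and 14.1 CPM in Basal 1, 9, 14 and 27 to 8.60, 8.08, 6.91, 6.68 and 7.49 CPM in RU486 6, 12, 19, 25 and 32 (-0.88 ± 0.14, edgeR adjusted p = 0.000537, held), without overlap. Of 25 glutamate receptor genes 1 fell, a share near the 2.84% of all genes: Grik3, a kainate receptor subunit, from 58.4 ± 2.29 to 40.8 ± 5.14 CPM (-0.52 ± 0.13, adjusted p = 0.0185), lost without Basal 1 (0.0606) or RU486 19 (0.063). None of 14 tested GABA receptor genes passed, and their median was -0.14. Every RU486 library was below every Basal library for 6 of the 25 glutamate and 3 of the 14 GABA receptor genes (background 6.07%). It was above for 0 genes of either list (background 4.73%). Adcy8, a calcium-stimulated adenylyl cyclase, was named after its values were seen; it fell from 24.7 ± 2.64 to 14.1 ± 1.62 CPM (-0.81 ± 0.12, adjusted p = 0.000137, held).

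The gene with the smallest p of all, named for that after its values were seen, was Cdh10, a type II cadherin that joins neurons at synapses, on chromosome 15 from 18818947 to 19014236. It measured 51.5, 49.4, 49.6 and 49 CPM in Basal 1, 9, 14 and 27 and 26.6, 29.1, 22.6, 27.5 and 27.3 CPM in RU486 6, 12, 19, 25 and 32. Here Basal 9 did not differ from the other Basal libraries, and the fall was -0.91 ± 0.08 (edgeR adjusted p = 1.93e-07). Cdh9, a close relative, fell from 50.5 ± 3.32 to 29.9 ± 3.10 CPM (-0.76 ± 0.09, adjusted p = 2.12e-05), and Cdh11 from 102 ± 12.3 to 64.6 ± 7.05 CPM (-0.66 ± 0.09, adjusted p = 0.000133). Slitrk1, a synaptic adhesion protein, fell from 85.7, 66.7, 85.3 and 85.2 CPM to 47.4, 51.6, 39.7, 51.5 and 47.7 CPM in the same libraries (-0.76 ± 0.12, adjusted p = 0.000237). Kif21b, a kinesin of dendrites, fell from 60.5 ± 5.25 to 35.3 ± 4.47 CPM (-0.78 ± 0.09, adjusted p = 1.63e-05). Opposite in direction, Lrig1, a membrane protein that restrains growth factor receptors, rose from 22.3 ± 1.77 to 32.4 ± 1.44 CPM (0.54 ± 0.07, adjusted p = 8.81e-05). All of these were held calls, chosen after their values were seen, and none passed in RU486 against Vehicle. Vehicle means were 27.5 CPM for Cdh10, 29.1 for Cdh9, 64.7 for Cdh11, 49.1 for Slitrk1, 34.9 for Kif21b and 33.9 for Lrig1.

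Several growth factor receptors and vessel wall genes fell, and the summed level of pericyte markers was lower in most RU486 libraries. Of 10 ErbB and neuregulin genes 3 fell and 1, Errfi1, rose, against 2.84% and 2.61% of all tested genes. Erbb3, a neuregulin receptor of glia, measured 16.6, 10.7, 14.9 and 17.8 CPM in Basal 1, 9, 14 and 27 and 6.14, 4.49, 3.24, 6.88 and 5.80 CPM in RU486 6, 12, 19, 25 and 32 (-1.5 ± 0.23, edgeR adjusted p = 0.000225, held). The 16 markers of myelinating oligodendrocytes held no call (0), with a median of -0.15 and a summed level of 6629 to 9158 CPM in Basal and 6076 to 9299 CPM in RU486. Nrg2, a neuregulin, fell by 0.75 (adjusted p = 0.00747), lost without Basal 14 (0.054), and Egfr by 0.46 (adjusted p = 0.039), lost without any of the 4 Basal libraries or RU486 19, 25 or 32 (0.0521 to 0.118). Wnt9a, a secreted Wnt ligand, showed the largest fall among the called genes with at least 1 CPM over the 9 libraries: 16.3, 4.55, 16 and 10.8 CPM in Basal against 4.12, 2.50, 2.07, 3.79 and 2.42 CPM in RU486 (-2.0 ± 0.29, adjusted p = 0.000168, held). Basal 9 was again the lowest Basal library, just above RU486 6.

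Pdgfrb, the growth factor receptor that marks pericytes, fell from 16.1 ± 2 to 9.16 ± 1.44 CPM (-0.82 ± 0.14, edgeR adjusted p = 0.000678, held), with Basal at 13.3 to 17.5 CPM and RU486 at 7.33 to 10.5 CPM. It is 1 of 13 pericyte and smooth muscle markers, of which 3 fell and 0 rose, against 2.84% and 2.61% of all genes; their summed level was 112 to 153 CPM in Basal and 77.1 to 115 CPM in RU486, and none was at 0. Myh11, the smooth muscle myosin, fell by 1.37 (adjusted p = 0.038) and lost the call without Basal 1, 14 or 27 or RU486 19, 25 or 32 (0.0761 to 0.127). Of 14 endothelial markers 1 fell (2.84% of all genes), with a median of -0.54 and a summed level of 229 to 287 CPM in Basal and 166 to 280 CPM in RU486. That gene was Cldn5, the tight junction protein of brain vessels, at 15.9, 6.91, 15.6 and 15.5 CPM in Basal 1, 9, 14 and 27 and 7, 4.85, 7.02, 4.20 and 4.27 CPM in RU486 (-1.31 ± 0.34, adjusted p = 0.0247). Basal 9 lay inside the RU486 range for Cldn5, and the call ended without Basal 1, 14 or 27 or RU486 12, 25 or 32 (0.0521 to 0.0867). Kdr, the main receptor for vascular endothelial growth factor, fell from 9.24 ± 3.31 to 3.60 ± 1.54 CPM (-1.37 ± 0.32, adjusted p = 0.0111) and lost the call without Basal 1 (0.0646). The part of the lower marker levels in the falls of these receptors was not tested.

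Other large falls were Cd180, a Toll-like receptor homologue (3.17 ± 0.905 to 0.820 ± 0.300 CPM, -1.95 ± 0.28, edgeR adjusted p = 0.000133), Adamts16, a matrix protease (2.05 ± 0.286 to 0.580 ± 0.142 CPM, -1.81 ± 0.26, adjusted p = 0.000145), and Prokr2, a prokineticin receptor (3.53 ± 1.10 to 1.28 ± 0.189 CPM, -1.46 ± 0.26, adjusted p = 0.000935). Each was a held call with non-overlapping groups. None of 13 microglia markers passed.

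Markers of hippocampal fields and of neighbouring regions gave mostly falls where they passed. Of 14 dentate gyrus markers 1 rose and 2 fell, against 2.61% and 2.84% of all tested genes; the rise was Pdzd2, a scaffold protein, from 54.2 ± 6.13 to 94.6 ± 9.19 CPM (0.80 ± 0.15, edgeR adjusted p = 0.00228, held). Of 12 CA3 markers 2 fell, Cdh24, called in 18 of the 19 alternatives, and Prss23, called in 9 of them. Of 15 thalamus markers 1 fell, Cacna1g, whose call ended without Basal 1, 14 or 27 or RU486 19 (0.0741 to 0.0796). Of 16 neocortex markers 3 fell, against 2.84% of all genes, and none of the 3 was a held call; among them was Tbr1, a transcription factor of deep layers, from 51.4 ± 6.91 to 34.6 ± 3.32 CPM (-0.57 ± 0.12, adjusted p = 0.00691), lost without Basal 1 (0.0505). Every RU486 library was below every Basal library for 4 of the 16 neocortex markers and 3 of the 12 CA3 markers (background 6.07%). Summed neocortex markers were at 643 to 683 CPM in Basal and 582 to 640 CPM in RU486, without overlap. The neocortex scores did overlap, at 0.049 to 0.15 in Basal and -0.2 to 0.061 in RU486. The sums of CA3 markers (555 to 631 and 503 to 637 CPM) and thalamus markers (283 to 358 and 218 to 357 CPM) overlapped. Of 12 choroid plexus markers 0 passed although their median was 2.27, since the rise rested on RU486 6 and 25: their summed level was 255 to 684 CPM in Basal, 289 CPM at the lowest and 6844 CPM at the highest in RU486. Ttr gave 3.39 ± 1.70 (adjusted p = 0.247), and its sign turned without RU486 6 and 25 (adjusted p = 0.71).

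**Figure D5:**
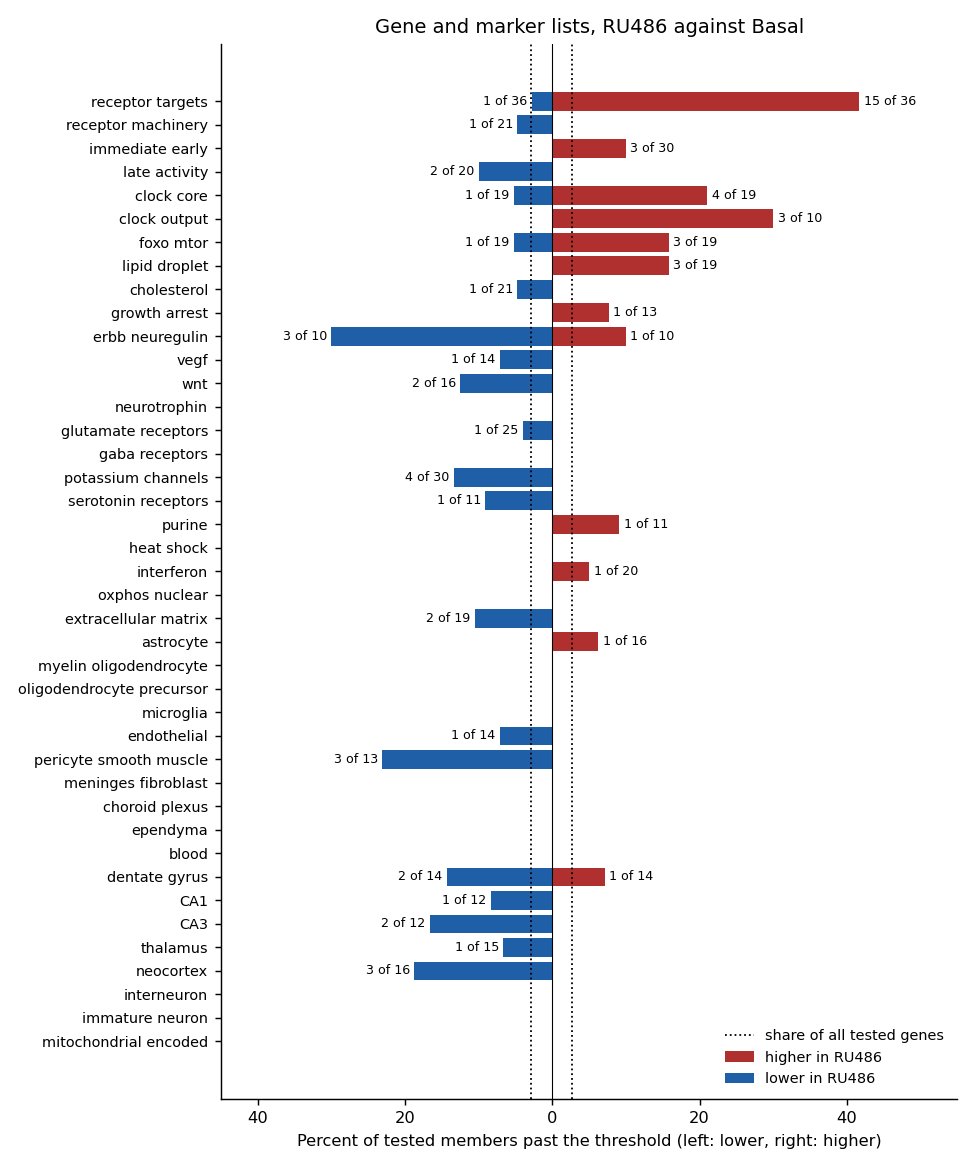
Percent of the tested members of each gene or marker list that passed in RU486 against Basal, higher to the right and lower to the left, with the counts beside the bars; dotted lines mark the share of all tested genes (2.61% higher, 2.84% lower). Receptor targets reach 15 of 36 higher.

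Direct comparisons with the other conditioned groups completed the description of RU486. Against Vehicle the 5 smallest p-values belonged to Dbp, Cacna1g, Otof, Necab1 and Camk2d, at adjusted p of 0.0534 for the first 4 and 0.0563 for Camk2d by edgeR. For Otof, Necab1, Cacna1g and Camk2d the Vehicle libraries spread widely. Otof, otoferlin, was high in 2 of 4 Vehicle libraries, measuring 1.34, 4.21, 1.23 and 5.22 CPM in Vehicle 3, 16, 23 and 29 against 0.607 to 1.20 CPM in RU486. Necab1, a calcium-binding protein of neurons, reached 72.9, 78.2, 49 and 122 CPM against 40.5 to 49.3 CPM, with Vehicle 29 the highest. Cacna1g, a T-type calcium channel of the thalamus list, was at 54.2, 64.7, 33.4 and 55.8 CPM against 23.7 to 31.5 CPM, and Camk2d, a calmodulin-dependent kinase, at 44.7, 70.2, 33.9 and 52.4 CPM against 27.2 to 34.3 CPM. For Necab1, Cacna1g and Camk2d, Vehicle 3, 16 and 29 were well above RU486, and Vehicle 23 was at or near the RU486 range. Vehicle 16 and 29 carried the highest neocortex scores and Vehicle 16 the highest thalamus score, and the part of these markers in the differences was not tested.

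Against Cort, 9 genes passed (0.0538% of tested genes; 894 at an unadjusted p under 0.05), 1 higher (0.00598%) and 8 lower (0.0478%) in RU486. The higher gene was Dbp, at 39.8 ± 6.82 CPM in RU486 and 23.9 ± 5.54 CPM in Cort (0.73 ± 0.14, edgeR adjusted p = 0.0385). Fkbp5 measured 101 to 122 CPM in RU486 and 159, 159, 162, 180 and 175 CPM in Cort 4, 11, 17, 30 and 36, a difference of -0.56 ± 0.09 (adjusted p = 0.00557). Cdkn1a measured 8.75 to 21 CPM in RU486 and 80.7, 49.5, 46.8, 55.4 and 41.9 CPM in Cort, a difference of -1.83 ± 0.28 (adjusted p = 0.00557). For Fkbp5 and Cdkn1a every RU486 library was below every Cort library. Zbtb16 (-0.50 ± 0.10, adjusted p = 0.0385) and Pnpla2 (-0.73 ± 0.13, adjusted p = 0.0275) were among the other lower genes. The count was 3 without Cort 4, Cort 30, RU486 12, RU486 25 or RU486 32 and 0 without RU486 6 and 25 together, where Fkbp5 stood at an adjusted p of 0.257, Cdkn1a and Zbtb16 at 0.244, and Dbp and Pnpla2 at 0.364. Leaving out 1 library at a time kept Fkbp5 and Cdkn1a past the threshold, though Cdkn1a missed it when only these groups were fitted (0.0587) and with thalamus and neocortex scores as covariates (0.0621); Dbp lost it without Cort 4, 17, 30 or 36 or RU486 6, 12, 25 or 32 (0.0782 to 0.216), Zbtb16 without the same Cort libraries or RU486 12, 19, 25 or 32 (0.0649 to 0.139), and Pnpla2 without Cort 4, 11 or 30 or RU486 12, 25 or 32 (0.058 to 0.139).

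Against the mean of Vehicle, Cort, C108 and C118, 0 genes passed with edgeR (606 at an unadjusted p under 0.05), DESeq2 gave 4 and limma-voom 0. The smallest adjusted p was 0.346, shared by Dbp (0.53), Mid1 and Pon3. Mid1, a ubiquitin ligase, was at 12.2 CPM in RU486 12 and at 2.23 to 3.27 CPM in the other RU486 libraries. Pon3, a paraoxonase, passed against Basal (1.17 ± 0.33, edgeR adjusted p = 0.035), a call lost without any of the 4 Basal libraries, RU486 6 or RU486 25 (0.0577 to 0.113). It was at 1.93 to 2.35 CPM in Basal, at 10 and 6.07 CPM in RU486 6 and 25, the libraries with choroid plexus transcripts, and at 2.13 to 2.76 CPM in the remaining ones. Dbp was at 29.7 ± 2.90 CPM in C108 and 37.2 ± 6.25 CPM in C118, so the C118 libraries (30.9 to 46.3 CPM) overlapped those of RU486.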

How the data were processed

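Stranded mRNA libraries were read as paired ends, per the labels' protocols. The deposited values are raw read counts by Ensembl gene in 28 libraries, which the authors made with HTSeq 0.6.1 on mm10 after FastQC and MultiQC, per the submitters' processing notes. No source used here names the aligner, the annotation release or the strand setting, so overlapping and antisense genes cannot be told apart with certainty. The 5 summary rows that name no gene, 12.63 to 19.74% of a library's reads, were left out; 50686 genes remained, 224 of them without a symbol. Totals over genes ran from 16244993 to 20295147 counts. No replicate pair agreed within sampling noise.

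Counts were tested with edgeR 4.0.16 (filterByExpr at min.count 10 and min.total.count 15, TMM, robust quasi-likelihood F test, two-sided) in R 4.3.3. All 28 libraries entered 1 fit with 22 residual degrees of freedom, and p was Benjamini-Hochberg adjusted over 16735 genes with a threshold of 0.05. Calls and fold changes were checked on simulated data. Alternatives were RLE normalization, no filter, a stricter filter (1 CPM in 4 libraries), DESeq2 1.42.0, limma-voom 3.58.1, only the groups compared, sample number, choroid plexus or thalamus and neocortex scores as covariates, and leaving out each library. Leaving out RU486 6 and 25, or Vehicle 16 and 29, was added after seeing the data. Symbols and positions come from GENCODE (GRCm38) and promoters from RefSeq. The comparison, the gene lists and the tests were chosen with earlier results of these data known. Named genes were the 12 largest rises and 12 largest falls among called genes with a mean of at least 1 CPM over the 9 libraries, up to 4 of smallest p per list with a call, 13 genes always reported, and in the other contrasts 5 called genes per direction or the 5 of smallest p; those with the clearest bearing are printed. A few withheld items are not reported here.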

Additional observations from a re-analysis of the deposited data

Results flagged for a closer look

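Among 178 groups of values checked for a library far from the others of its group, 19 stood out, and chance alone gives about 5% of such groups. Basal 9 accounted for 9 of them. It was the highest Basal library for Tsc22d3 (63.2 CPM), Sgk1 (130 CPM), Errfi1 (70.3 CPM), Arrdc2 (15.9 CPM), Nr1d2 (83.7 CPM), Dgat2 (148 CPM) and Fam83d (4.88 CPM), and the lowest for Slitrk1 (66.7 CPM) and Cldn5 (6.91 CPM). For all 9 genes the Basal 9 value lay on the side of the RU486 libraries. Without Basal 9 the count of genes that differed between RU486 and Basal was 1178 in place of 912.

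Basal 27 was far above the other Basal libraries for Ciart (4.63 CPM), Lcn2 (0.0965 CPM, the others being listed at 0) and Otof (1.06 CPM), and Basal 14 for Npas4 (5.84 CPM). RU486 19 was far above the other RU486 libraries for Dgat2 (223 CPM) and far below them for Kif21b (27.6 CPM) and Pgr (10.1 CPM). RU486 12 was far below the others for Npas4 (1.67 CPM), RU486 6 for Atp2c2 (0.799 CPM), and RU486 25 for the score over receptor targets (-0.338).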

How the results depend on the processing

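Of 912 genes called in RU486 against Basal, 212 were called in all 19 alternatives. The count was 533 with no low-count filter, and 275 to 1178 when 1 library at a time was left out. Higher genes numbered 436 as reported, 213 with no filter, 692 with DESeq2, 655 with the choroid plexus score as a covariate, and 117 to 594 leaving out 1 library; lower genes numbered 476 and 158 to 584. Receptor targets that rose numbered 15 and 6 to 19. Vehicle against Basal gave 688, 355 with only the groups compared, 1070 with sample number as a covariate, 378 without Vehicle 16 and 29, and 346 to 940 leaving out 1 library. RU486 against Vehicle gave 0, against 1 with no filter, 7 with a stricter filter, 44 with DESeq2, 8 with sample number, 1 with thalamus and neocortex scores and 9 with the choroid plexus score as covariates, and 0 to 207 leaving out 1 library. RU486 against Cort gave 9, against 29 with DESeq2, 3 with only the groups compared, 21 with sample number, 2 with thalamus and neocortex scores, 0 without RU486 6 and 25, and 3 to 9 leaving out 1 library. RU486 against the other conditioned groups gave 0, against 4 with DESeq2, 1 with sample number, 2 with thalamus and neocortex scores, and 0 to 2 leaving out 1 RU486 library. The cause of these shifts was not tested.

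Directions turned for genes that had not passed. Per1 (adjusted p = 0.97 as reported) turned with a stricter filter (0.994), limma-voom (0.992), the choroid plexus score (0.703), without RU486 6 and 25 (0.56), and in some leave-one-out fits (range over all of them 0.75 to 0.995): without Basal 9 (0.995), Basal 14 (0.995), Basal 27 (0.959), RU486 6 (0.781), RU486 25 (0.993) or RU486 32 (0.985). Camk2d turned with thalamus and neocortex scores (0.988), and Ttr with the choroid plexus score (0.737) and without RU486 6 and 25 (0.71). The labels give no pairing of libraries between groups, and no paired analysis was run. Counting error is largest for genes under 1 CPM, such as Lcn2.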

Other observations

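Gene families outside the lists above were counted after the values were seen, and they carry no test as families; the background is 2.61% of genes higher and 2.84% lower. The adhesion and guidance families that held calls held them only on the lower side. Of 19 tested cadherins 6 fell and 0 rose: besides Cdh10, Cdh9 and Cdh11 these were Cdh24 (11.5 to 7.64 CPM, edgeR adjusted p = 0.0155), Cdh7 (6.68 to 4.23 CPM, 0.0349) and Cdh6 (4.84 to 3.10 CPM, 0.0496). Of 6 SLITRK genes, which encode synaptic adhesion proteins, 3 fell: Slitrk1, Slitrk2 (41.4 to 28.5 CPM, adjusted p = 0.000853) and Slitrk5 (112 to 81.2 CPM, 0.00664). Of 20 semaphorins 3 fell, led by Sema6d (103 to 70.7 CPM, 0.000678), and of 20 ephrins and Eph receptors 5 fell, among them Efnb3 (167 to 130 CPM, 0.0201) and Ephb3 (17.3 to 10.9 CPM, 0.0235). Of 66 protocadherins 2 fell, a share near the 2.84% of all genes, and of 9 plexins 0 passed.

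Ribosome-related families held small rises. Of 77 mitochondrial ribosomal proteins 5 rose and 0 fell, by 0.33 to 0.40 on the log2 scale, such as Mrpl49 (36 to 46.4 CPM, edgeR adjusted p = 0.0256). Of 10 UTP subunits, which process the small ribosomal subunit's RNA, 4 rose by 0.22 to 0.36, such as Utp4 (40.7 to 52.1 CPM, 0.0297), and Utp14b fell (15.6 to 8.88 CPM, 0.00527). None of 93 cytosolic ribosomal protein genes passed (0 calls), and their median was 0.13. In RU486 against Vehicle no member of these families passed. Slitrk2, Slitrk5, Sema6d and Utp14b were called in all 19 alternatives, and Cdh24, Cdh7, Cdh6, Efnb3, Ephb3, Mrpl49 and Utp4 in 9 to 18 of them.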
